A study of Mus musculus with 4 samples.

Results

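Vesicular glutamate transporters load glutamate into synaptic vesicles, and the mouse has 3 of them, encoded by Slc17a7 (VGLUT1), Slc17a6 (VGLUT2) and Slc17a8 (VGLUT3). Their rows were taken from the deposited count table by gene symbol, which found all 3 among 24015 genes, and all 3 were among the 15117 genes with enough counts to test. The table comes from cerebella dissected from mice heterozygous for an Arid1b knockout and from their wild type littermates, C57BL/6N animals of 140 to 150 days. Each genotype had 2 libraries, 1 from a male and 1 from a female. No treatment is named, the groups shared strain, age and tissue, and the sources used here do not give the deleted part of Arid1b. The study asked how a single working copy of Arid1b, which encodes a DNA-binding subunit of a nucleosome-moving complex, changes transcription. Here the comparison is of the granule cell transporter with the transporters of deeper and neighbouring neurons.

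A neuron needs a vesicular glutamate transporter to release glutamate, and the proton gradient made by the vesicle's proton pump drives the uptake. In the cerebellum Slc17a7 is the transporter of granule cells and their parallel fibres. Slc17a6 serves excitatory neurons of the cerebellar nuclei and many brainstem, midbrain and thalamic neurons, and is also found in climbing and some mossy fibres, whose cell bodies lie largely outside the cerebellum. Slc17a8 is carried by scattered neurons that mostly release another transmitter, among them serotonin neurons of the raphe and cholinergic neurons of the striatum.

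Because the 3 genes are related, the stretch of 100 coding bases in which they are most alike is shown, to let a reader see how far single reads can tell them apart. The sequences come from the GENCODE M21 transcripts (mouse GRCm38, whereas the submitters' notes name mm9) and read 5′ to 3′ along the coding strand. Capitals mark the 23 positions at which the 3 genes do not all carry the same base.
Slc17a7: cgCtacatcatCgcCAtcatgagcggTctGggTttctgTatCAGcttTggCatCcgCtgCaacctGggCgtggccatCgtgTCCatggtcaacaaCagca
Slc17a6: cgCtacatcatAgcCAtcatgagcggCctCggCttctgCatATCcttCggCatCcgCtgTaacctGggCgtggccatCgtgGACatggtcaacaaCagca
Slc17a8: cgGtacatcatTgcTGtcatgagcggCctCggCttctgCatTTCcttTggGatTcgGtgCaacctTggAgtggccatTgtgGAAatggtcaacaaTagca
The stretch spans coding bases 184 to 283 of Slc17a7, 208 to 307 of Slc17a6 and 262 to 361 of Slc17a8. Even here 77 of 100 bases were the same in all 3 genes. Over the whole transcripts the longest identical run was 21 bases between Slc17a7 and Slc17a6, 17 between Slc17a7 and Slc17a8, and 25 between Slc17a6 and Slc17a8. The libraries were read as single ends of 100 bases, and no run of 100 bases was identical between any pair of the 3 transcripts.

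The 4 libraries held 15950899 to 20616219 counts. Arid1b stood at 52.9 and 55.8 CPM, the count of a gene scaled to the total of its library, in the 2 heterozygotes and at 69.9 and 71.0 CPM in the 2 wild types, a log2 difference of -0.37 ± 0.11 (SE) that was not called (adjusted p = 0.243, edgeR quasi-likelihood test). The granule cell marker Gabra6 was present at 329 to 502 CPM and the Purkinje cell marker Pcp2 at 132 to 209 CPM. The forebrain excitatory marker Neurod6 was at 4.89 to 7.34 CPM and Tbr1, a marker of some excitatory cerebellar nuclear neurons, at only 0.789 to 1.28 CPM. The wild type female library stood apart from the others. In it 345 of the tested genes (2.28%) lay below 0.5 times the lowest of the other 3 libraries, against 39 to 62 genes for any other library. Results that rest on it are therefore given with and without it. The labels do not say whether other conditions differed between the animals, so the spread behind each p-value is that of these libraries, which may be technical.

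Slc17a7 was the most abundant of the 3 and nearly level in 3 of the 4 libraries. It stood at 446 CPM in the heterozygous male, 444 in the heterozygous female, 453 in the wild type male and 564 in the wild type female. Both heterozygotes lay below both wild types, but the wild type male was close to them and only the wild type female was clearly higher. The mean was 445 ± 1.12 CPM for the heterozygotes and 509 ± 79.1 CPM in the wild types (SD, n = 2 each), so that the distance between the means was smaller than the spread between the wild types. The log2 fold change was -0.18 ± 0.11 (SE; 95% interval -0.43 to 0.06), and it did not pass the test (edgeR quasi-likelihood test, adjusted p = 0.569).

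Slc17a6 was level in the same 3 libraries and low in the wild type female. Its values were 163 CPM in the heterozygous male, 164 in the heterozygous female, 153 in the wild type male and 66.4 in the wild type female. The groups did not overlap here either, since the wild type male lay just under both heterozygotes. The heterozygotes had a mean of 164 ± 0.905 CPM and the wild types one of 110 ± 61.1 CPM (SD, n = 2 each). The log2 fold change was 0.69 ± 0.45 (SE; 95% interval -1.35 to 2.73), which did not pass the test (edgeR quasi-likelihood test, adjusted p = 0.714).

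Slc17a8 had the lowest counts and the widest swing. It was counted 143 times in the heterozygous male (7.05 CPM), 93 times in the heterozygous female (5.83 CPM), 102 times in the wild type male (6.20 CPM) and 10 times in the wild type female (0.485 CPM). The wild type male lay between the heterozygotes, so the groups overlapped, while the wild type female was far below all others. The exact Poisson 95% interval of that lowest level, 0.233 to 0.892 CPM, ended below the 4.71 CPM at which the lowest of the other libraries' intervals began. Such intervals cover counting error only. The mean was 6.44 ± 0.862 CPM for both heterozygotes and 3.34 ± 4.04 CPM for both wild types (SD, n = 2 each), and the log2 fold change of 1.46 ± 1.14 (SE; 95% interval -3.18 to 6.10) did not pass the test (edgeR quasi-likelihood test, adjusted p = 0.746).

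None of the 3 transporters thus passed, where 0.0198% of all tested genes did (3 of 15117, all higher in the heterozygotes). The split of called genes depended on the scaling, with 5 higher and 2 lower under DESeq2's size factors and 5 higher and 8 lower under library totals. Groups that do not overlap were common among all tested genes, with 22.1% of genes having both heterozygotes above both wild types and 22.6% having them below. The non-overlap of Slc17a6 and of Slc17a7 was therefore no rare pattern in these libraries.

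**Figure D1:**
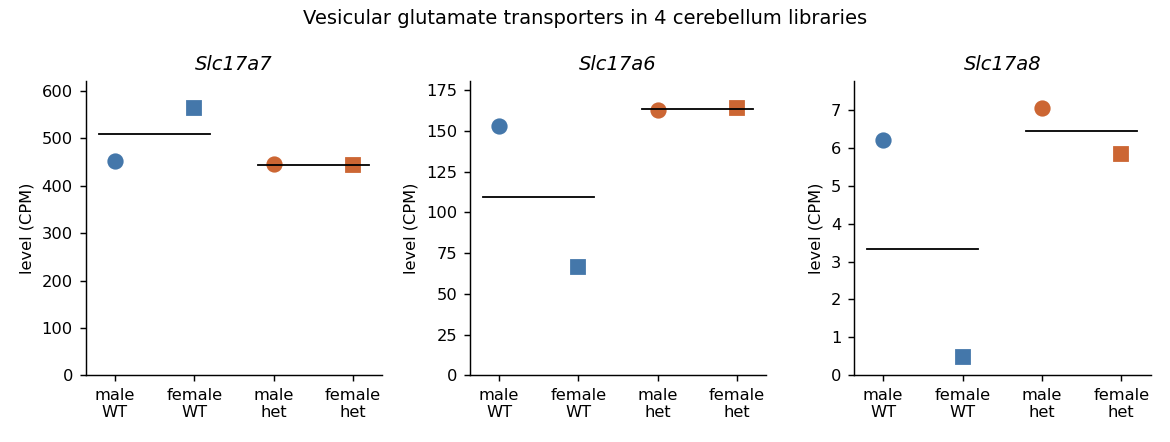
Level of each transporter in CPM (vertical axes, each from 0) in the male (circles) and female (squares) wild type (WT, blue) and heterozygote (het, orange) libraries, with black lines at the means of 2 libraries. The wild type female is the highest library for Slc17a7 (564 CPM) and the lowest for Slc17a6 (66.4 CPM) and Slc17a8 (0.485 CPM), and the other 3 libraries lie close together.

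Set against the other 3 libraries, the wild type female had 126% of their mean level of Slc17a7, 41.5% of that of Slc17a6 and 7.63% of that of Slc17a8. Among those 3 libraries the highest level exceeded the lowest by a factor of 1.02 for Slc17a7, 1.07 for Slc17a6 and 1.21 for Slc17a8. With the wild type female left out, the log2 fold change was -0.03 ± 0.08 for Slc17a7, 0.10 ± 0.09 for Slc17a6 and 0.06 ± 0.26 for Slc17a8 (SE). The 95% intervals ran from -0.19 to 0.14, from -0.09 to 0.28 and from -0.45 to 0.56 in the same order. None passed (edgeR quasi-likelihood test, adjusted p = 0.914, 0.648 and 0.937), although 658 genes (4.3%) did so in that fit. With the wild type male left out instead, the wild type female alone stood for its genotype. The log2 fold changes were then -0.34 ± 0.08 for Slc17a7, 1.30 ± 0.10 for Slc17a6 and 3.72 ± 0.41 for Slc17a8 (SE). All of these passed (edgeR quasi-likelihood test, adjusted p = 0.000496, 3.03e-33 and 2.3e-17), as did 2730 genes (17.5%). In such fits genotype is the only term, and the lone wild type is assumed to vary like the 2 heterozygotes, which were close to each other. The size and the call of every transporter difference thus followed which wild type library was used.

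**Figure D2:**
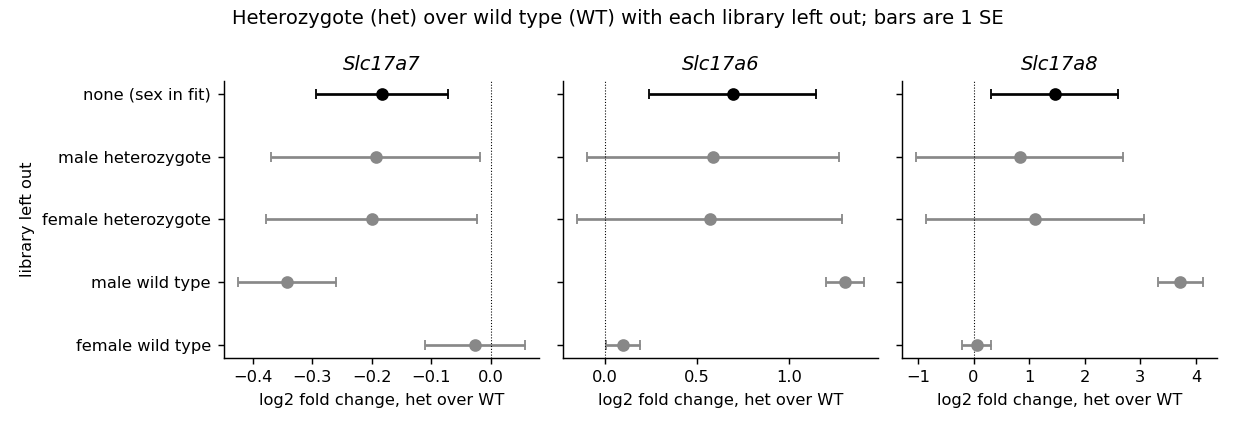
Log2 fold change of each transporter, heterozygote over wild type, with its SE as bars, in the fit of all 4 libraries (black, with sex as a term) and with each library left out in turn (grey). Without the wild type female all 3 points lie near 0 (-0.03, 0.10 and 0.06), and without the wild type male they lie farthest from it (-0.34, 1.30 and 3.72).

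Within the males, the heterozygote differed from the wild type by a log2 ratio of -0.02 for Slc17a7, 0.09 for Slc17a6 and 0.18 for Slc17a8. Within the females the ratios were -0.35, 1.30 and 3.32. The sign was the same in both sexes for all 3 transporters, with a far larger ratio in the females. Between the males, however, the exact Poisson intervals of heterozygote and wild type overlapped for each transporter. In that order they were 436 to 455 and 442 to 463 CPM for Slc17a7, and 157 to 169 and 147 to 159 CPM for Slc17a6. For Slc17a8 they were 5.94 to 8.30 and 5.05 to 7.53 CPM. Such an overlap is no test of the difference. With 1 male library per genotype, a direction in the males was not established. Between the females the intervals did not overlap for any transporter. The difference of the genotype effect between females and males was -0.32 ± 0.22 for Slc17a7, 1.21 ± 0.78 for Slc17a6 and 2.50 ± 3.02 for Slc17a8 on the log2 scale (SE). It passed for none of them (edgeR quasi-likelihood test, adjusted p = 0.998 for each), while 3 of all tested genes passed (0.0198%). The sex term of the 4-library fit gave a log2 fold change, female over male, of 0.16 ± 0.11 for Slc17a7, -0.59 ± 0.45 for Slc17a6 and -1.56 ± 1.14 for Slc17a8 (SE). None passed (edgeR quasi-likelihood test, adjusted p = 0.994 for each; 0.0595% of tested genes passed). The 2 females themselves were unlike, the heterozygote being close to both males and the wild type far from them. A single library that stands apart enters the genotype, sex and difference terms alike. Each fit leaves 1 of these terms to its residual spread, so a failure to pass does not decide between them.

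The ratio of the nuclear and brainstem transporter to the granule cell transporter needs no library scaling. For each count of Slc17a6 there were 2.73 of Slc17a7 in the heterozygous male, 2.70 in the heterozygous female, 2.96 in the wild type male and 8.50 in the wild type female. The ratio was thus close to 3 in 3 of the libraries and far higher in the other. The log2 ratio of Slc17a6 to Slc17a7 averaged -1.44 ± 0.0116 over the heterozygotes and -2.33 ± 1.08 over the wild types (SD, n = 2 each). Their difference of 0.88 was smaller than the spread between the wild types and had a p of 0.333 in a two-sided exact permutation test, the smallest p that 2 libraries against 2 can give. The difference was 0.12 between the males and 1.65 between the females. Without the wild type female it was 0.12.

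As shares of all counts on the 3 genes, Slc17a6 held 26.5% in the heterozygous male (exact binomial 95% interval 25.7 to 27.3), 26.7% in the heterozygous female (25.9 to 27.6), 25.0% in the wild type male (24.1 to 25.8) and 10.5% in the wild type female (9.996 to 11.1). Slc17a8 held 1.15%, 0.95% and 1.01% in the first 3 of these libraries and 0.0768% in the wild type female (exact binomial 95% interval 0.0368 to 0.141). The sum of the 3 genes moved little, with 615 CPM in the heterozygous male, 614 in the heterozygous female, 612 in the wild type male and 631 in the wild type female. In the wild type female Slc17a6 was lower and Slc17a7 higher, so the make-up of the sum differed while its size in CPM stayed close to that of the others. CPM takes no account of gene length, so this balance is one of counts and not of levels per length.

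**Figure D3:**
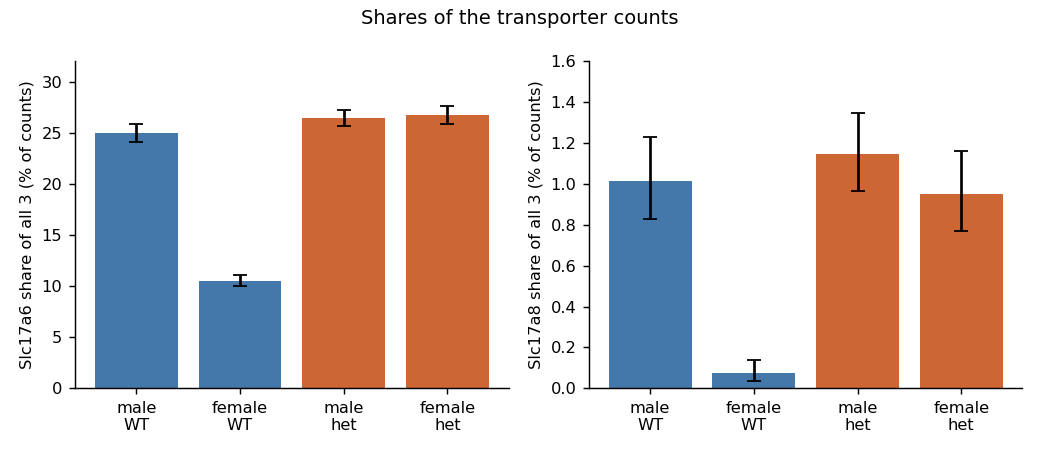
Share of Slc17a6 (left) and of Slc17a8 (right) in the counts of all 3 transporters, in percent, per library, with exact binomial 95% intervals as bars. Slc17a6 holds 25.0 to 26.7% in 3 libraries and 10.5% in the wild type female (WT), and Slc17a8 about 1% against 0.0768%.

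Levels of different genes can be compared only per length. With counts divided by the length of the longest coding transcript (2915 bases for Slc17a7, 4137 for Slc17a6 and 4456 for Slc17a8) and scaled to the same total in each library, Slc17a7 averaged 418 ± 5.14 over the heterozygotes and 485 ± 59.0 over the wild types. Slc17a6 stood at 108 ± 2.20 and 74.6 ± 43.7, and Slc17a8 at 3.96 ± 0.472 and 2.13 ± 2.60 (SD, n = 2 each). The order Slc17a7, Slc17a6, Slc17a8 held in every library. Per length, Slc17a7 exceeded Slc17a6 by a factor of 3.88 in the heterozygous male, 3.84 in the heterozygous female, 4.20 in the wild type male and 12.1 in the wild type female. By its mean over the libraries on this scale Slc17a7 ranked 346th of 22709 genes with a known length, Slc17a6 2439th and Slc17a8 12255th. With the union of all exons as the length, a choice added after the data were seen, these factors were 2.74, 2.71, 2.97 and 8.51 in the same order of libraries, and the 3 genes ranked 473rd, 2134th and 11848th.

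The transporter of granule cells was next set beside other granule cell markers. In bulk tissue, fewer cells of a type and less RNA per cell cannot be told apart. The heterozygotes had the lower mean for all 20 granule cell markers. Their median log2 fold change was -0.41 where that of all tested genes was 0.0063, and none passed singly in the fit of all libraries. Fat2, a large cadherin, had -0.58 ± 0.10 and Camk4, a calcium-dependent kinase, -0.59 ± 0.10 (SE; edgeR quasi-likelihood test, adjusted p = 0.13 for both). Of the 20 markers, 18 had a lower log2 fold change than Slc17a7. Between the males all 20 did, with a median of -0.33 where Slc17a7 had -0.02, and between the females 13 did, with a median of -0.39 where Slc17a7 had -0.35. Their summed level was 5500 CPM in the heterozygous male and 6125 in the heterozygous female, against 7182 in the wild type male and 8181 in the wild type female. Slc17a7 equalled 8.10% of that sum in the heterozygous male, 7.25% in the heterozygous female, 6.30% in the wild type male and 6.90% in the wild type female. The granule cell markers thus set the wild type male apart from the heterozygous male, which Slc17a7 did not, and whether the transporter and the markers differ in their response was not tested. Without the wild type female the median of the markers was -0.24 and all 20 were still lower. In that fit Fat2 had -0.40 and Camk4 -0.62. The wild type male alone then stood for its genotype, so no spread between wild types was measured.

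Slc17a6 was likewise set beside genes chosen as markers of cerebellar nuclear neurons. How specific they are to these neurons was not tested. Of 10 such genes the heterozygotes had more of 8 and less of 2. The median log2 fold change was 0.44, and no member passed the test in the fit of all libraries. Spp1, the secreted protein osteopontin, had 0.68 ± 0.10 and Nefl, the light neurofilament chain, 0.53 ± 0.10 (SE; edgeR quasi-likelihood test, adjusted p = 0.071 and 0.135), and in each sex the heterozygote had more of both. On the lower side were the potassium channel gene Kcnc1 (-0.22) and Tbr1 (-0.45). Between the males 8 of the 10 markers had a higher ratio than or one equal to that of Slc17a6, and between the females 2 did. Slc17a6 equalled 4.56% of the summed level of these markers in the heterozygous male, 4.81% in the heterozygous female, 5.04% in the wild type male and 2.34% in the wild type female. Only Lhx2 and Lhx9, LIM homeobox factors, shared its low value in the wild type female, at less than 0.5 times the lowest other library. Lhx9 stood at 15.2, 12.9 and 12.4 CPM in the other libraries and at 1.75 CPM there. Without the wild type female the median of the nuclear markers was 0.25, with 8 higher and 2 lower. Spp1 then stood at 0.52 and Nefl at 0.45, with the wild type male alone standing for its genotype.

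Markers of neurons outside the cerebellum moved with the low values of Slc17a6 and Slc17a8. Of 11 markers of aminergic and cholinergic neurons, 7 lay below 0.5 times the lowest other library in the wild type female, and 7 of 10 midbrain markers did so, against 2.28% of all tested genes. The aminergic and cholinergic list summed to 318 CPM in the heterozygous male, 281 in the heterozygous female, 247 in the wild type male and 74.4 in the wild type female. The midbrain list summed to 132, 128, 126 and 55.9 CPM in the same order. Its member Slc6a3, the dopamine transporter, had no count in the wild type female, which allows up to 0.146 CPM (Slc6a3, like Lhx2 above, was singled out after its values were seen). The 14 brainstem positional and motor genes did not follow. Their sum was highest in the wild type female, at 111 CPM against 50.5 to 78.9 CPM elsewhere, and the hindbrain homeobox gene Hoxa5 stood there at 15.9 CPM against 2.32 to 5.64 CPM. The part of neighbouring tissue in the transporter values was not tested.

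By genotype, all 11 aminergic and cholinergic markers were higher in the heterozygotes (median log2 fold change 1.18), and 1 of them rose past the test. This was Th, tyrosine hydroxylase, with 1.15 ± 0.15 (SE; edgeR quasi-likelihood test, adjusted p = 0.0473), and Dbh, the enzyme that makes noradrenaline, followed at 1.24 ± 0.29 (adjusted p = 0.209). The call of Th was lost with a filter of 1 CPM in 2 libraries (adjusted p = 0.0919), without the sex term (adjusted p = 0.307) and without the heterozygous male or the heterozygous female (adjusted p = 1.00 and 0.813). The call of Th held with the other tools and scalings tried and without a low-count filter. The midbrain markers had 7 higher and 3 lower members (median 1.22). Among them were Pou4f2 at 0.61 on the higher side, and Barhl2 at -0.49 and Lef1 at -0.12 on the lower. Without the wild type female the medians of these lists were 0.31 (9 members higher, 2 lower) and -0.0043 (5 higher, 5 lower). Th then stood at 0.83 and Dbh at 0.50. Slc17a6 and Slc17a8 had log2 fold changes of 0.10 and 0.06 in that fit.

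**Figure D4:**
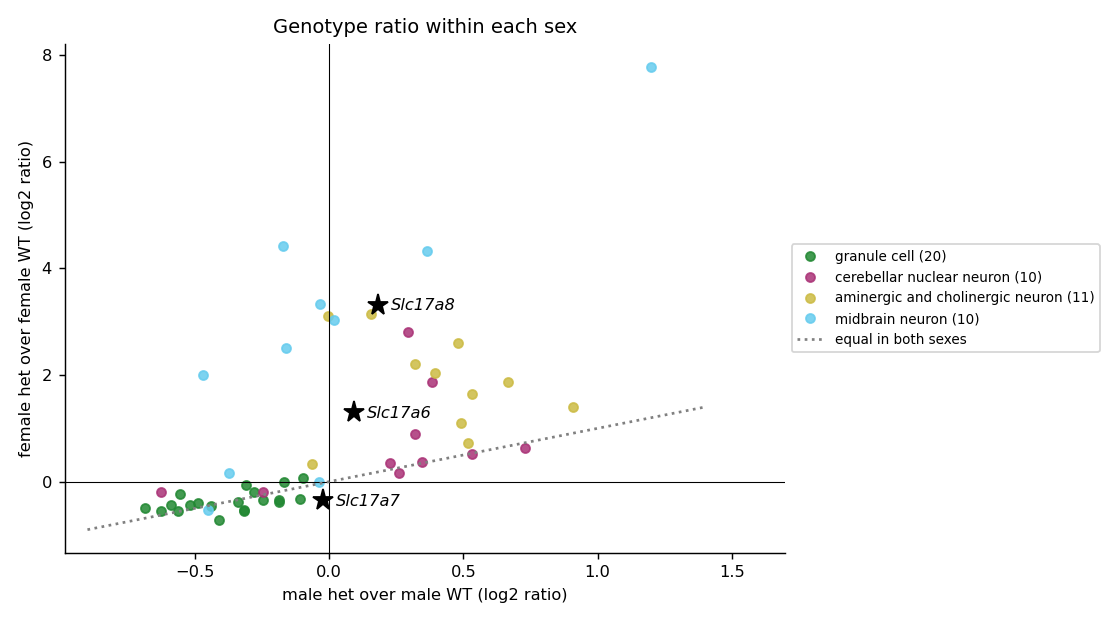
Log2 ratio of heterozygote (het) over wild type (WT) between the males (horizontal) and between the females (vertical) for the 3 transporters (stars) and 4 marker lists (dots, number of genes in brackets), with a prior count of 2. Slc17a7 lies to the right of all 20 granule cell markers, and Slc17a6 and Slc17a8 lie high on the female axis (1.30 and 3.32) but near 0 on the male axis (0.09 and 0.18).

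The genes whose levels over the 4 libraries were most like those of each transporter were sought among 10434 or 10435 tested genes of at least 10 CPM. Likeness was the root mean square difference of centred log2 levels, over only 4 libraries, so that many genes fit closely. For Slc17a7 the nearest were Maf1, a repressor of RNA polymerase III (0.0119), Polb, a DNA repair polymerase (0.0120), Bax, a regulator of cell death (0.0136), Shmt2, a mitochondrial enzyme of serine metabolism (0.0147), and Rbm6, an RNA-binding protein. None of the granule cell markers was among them. For Slc17a6 they included Tenm4, a teneurin (0.0262), Kcnc2, a fast potassium channel (0.0412), Atp8a2, a phospholipid flippase, and Ldb2, a cofactor of LIM domain factors. Kcnc2 for example stood at 53.1 CPM in the heterozygous male, 55.9 in the heterozygous female, 52.5 in the wild type male and 21.2 in the wild type female.

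For Slc17a8 the nearest were Tph2, the enzyme of serotonin synthesis in neurons (0.143), Tcf7l2, a transcription factor of the Wnt pathway abundant in the thalamus and parts of the midbrain (0.195), Slc6a4, the serotonin transporter (0.211), Lhx9 (0.253) and Slc6a2, the noradrenaline transporter (0.337). Tph2 stood at 52.1 CPM in the heterozygous male, 49.5 in the heterozygous female, 52.2 in the wild type male and 5.63 in the wild type female. Slc6a4 stood at 34.2, 35.4, 30.6 and 3.93 CPM in the same order. Like Slc17a8, both were level in 3 libraries and lower by roughly an order of magnitude in the wild type female. Tph2, Slc6a4 and Slc6a2 are among the aminergic markers counted above, Tcf7l2 among the midbrain and Lhx9 among the nuclear ones, so these are not further evidence. With genes down to 1 CPM admitted, 4 of the 5 genes nearest to Slc17a7 stayed among its nearest 5, as did 3 for Slc17a6 and 3 for Slc17a8.

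**Figure D5:**
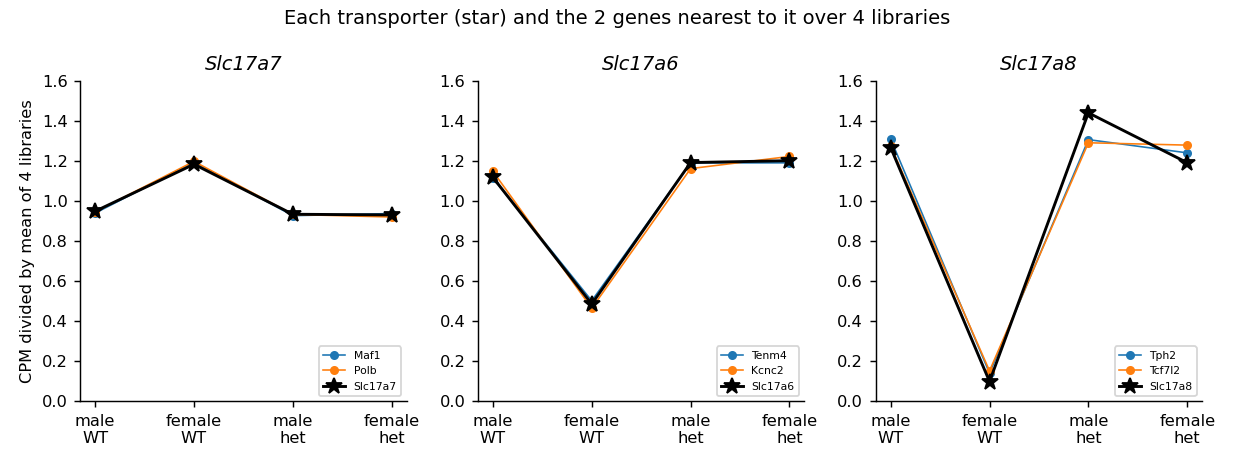
Level of each transporter (black stars) and of the 2 genes nearest to it (coloured), each divided by its own mean over the 4 libraries, in the wild type (WT) and heterozygote (het) libraries of each sex. The genes near Slc17a7 peak in the wild type female, and those near Slc17a6 and Slc17a8 have their lowest value there.

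Of the other SLC17 genes, only Slc17a5, the lysosomal sialic acid exporter sialin, had enough counts to test. It stood at 15.1 CPM in the heterozygous male, 16.6 in the heterozygous female, 19.6 in the wild type male and 18.7 in the wild type female (log2 fold change -0.27 ± 0.16, SE; edgeR quasi-likelihood test, adjusted p = 0.571). Slc17a9, a vesicular nucleotide transporter, had 3 to 12 counts per library, and Slc17a1, Slc17a2, Slc17a3 and Slc17a4, which act mainly in kidney, liver and gut, had 0 or 1.

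Among the 9 vesicular transporters and vesicle proteins of other transmitters, the heterozygotes had more of 7 and less of 2 (median log2 fold change 0.50). None passed in the fit of all libraries. Slc32a1, which loads GABA and glycine, had 0.30 ± 0.10 (SE) and stood at 190 and 173 CPM in the heterozygotes against 148 in each wild type. Slc18a2, the vesicular monoamine transporter of the brain, resembled Slc17a8, with 42.8 CPM in the heterozygous male, 32.7 CPM in the heterozygous female, 34.3 CPM in the wild type male and 6.99 CPM in the wild type female. Slc10a4, a vesicle protein of aminergic and cholinergic neurons, was at 16.3, 15.6, 13.9 and 4.90 CPM in that order. Slc18a3, the vesicular acetylcholine transporter, did not share this low value, with 6.44 CPM in the wild type male and 6.50 CPM in the wild type female against 9.27 and 10.8 CPM in the heterozygotes. The remaining members had log2 fold changes of 1.23 (Sv2c), 0.50 (Slc18a1), 0.12 (Sv2a), -0.11 (Slc18b1) and -0.20 (Sv2b). The list's median was 0.18 when the wild type female was left out, with 7 members higher and 2 lower. Slc32a1 then stood at 0.30 and Sv2c at 0.57.

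Genes of the machinery that fills and releases glutamate vesicles went both ways. Of 15 tested genes of the proton pump and vesicle chloride transport 12 were higher and 3 lower (median 0.10), with the pump subunits Atp6v1h at 0.21 and Atp6v1d at 0.20 and with Clcn3 at -0.08 and Atp6ap2 at -0.05. Of 19 genes of glutamate synthesis and recycling 10 were higher and 9 lower (median 0.03). Slc25a18, a mitochondrial glutamate carrier, had 0.28 and Slc1a1, a neuronal glutamate transporter, 0.36, while Slc1a6, the glutamate transporter of Purkinje cells, had -0.32. Of 20 genes of vesicle release 10 were higher and 10 lower (median 0.01), with the syntaxin Stx1a at 0.86 and complexin Cplx1 at 0.31, and with the active zone proteins Bsn at -0.44 and Pclo at -0.40. In the fit of all libraries none of these 54 genes passed the test (lowest adjusted p in edgeR's quasi-likelihood test 0.158). None lay below 0.5 times the lowest other library in the wild type female. Without that library 9 of the 20 vesicle release genes were higher and 11 lower. Of the 15 pump and chloride genes 12 were then higher, as were 11 of the 19 genes of glutamate supply. Stx1a stood at 0.57 and Cplx1 at 0.30 on the higher side, and Bsn at -0.43 and Pclo at -0.41 on the lower. The wild type male alone stood for its genotype in that fit.

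Markers of other cell types varied as follows. All 12 Purkinje cell markers were lower in the heterozygotes (median -0.32; Rora -0.43 and Atp2a3 -0.43), and 11 of them had their highest level in the wild type female, as Slc17a7 did. All 8 endothelial and mural markers were lower (median -0.50; Slco1a4 -0.85 and Abcc9 -0.97), again with the highest level of each in the wild type female. Their sum was 243 CPM there and 127 to 169 CPM elsewhere. The 9 oligodendrocyte markers (median 0.14; Olig1 0.42, Olig2 0.22) and the 8 choroid plexus markers (median 0.55; Folr1 1.24, Enpp2 0.46) were all higher. The choroid plexus genes summed to 2670 CPM in the heterozygous male and to 1445 to 1534 CPM in the other libraries, and their median was 0.11 without that male. The 8 astrocyte and Bergmann glia markers had a median of -0.10 (Gfap 0.23, Fabp7 0.13, Gdf10 -0.40, Slc1a3 -0.25). Of 4 unipolar brush cell markers, the excitatory interneurons of the granular layer, 1 was higher (Lmx1a 0.36) and 3 lower (among them Eomes at -0.34). The 6 genes of glycinergic and GABAergic neurons had a median of 0.07 and included 1 that rose, the glycine transporter Slc6a5, at 1.42 ± 0.18 (SE; edgeR quasi-likelihood test, adjusted p = 0.0473). The same 4 settings ended this call (adjusted p = 0.0919 to 1.00). The call of Slc6a5 held with the other tools and scalings tried and without a low-count filter. Gad1 (-0.11) was on the lower side. Without the wild type female Slc6a5 stood at 0.96 and Gad1 at -0.17. Of 14 brainstem positional and motor genes 7 were higher and 7 lower (Calca 0.73, Prph 0.34, Hoxa5 -1.20, Hoxa4 -0.73). Without the wild type female the medians were -0.22 for Purkinje cells, -0.25 for endothelial and mural cells, 0.17 for oligodendrocytes, 0.62 for the choroid plexus and 0.0089 for astrocytes and Bergmann glia. That of the brainstem genes was then 0.45, with Hoxa5 at -0.08 and Hoxa4 at -0.25. In that fit 1 of the 12 Purkinje markers was higher and 11 were lower. The part of cell make-up in the transporter values was not tested.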

How the data were processed

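Raw counts per gene symbol, in 1 column for each library, are the authors' deposited values. The submitters' processing notes name STAR, featureCounts, FastQC, edgeR and the build mm9 with no version or setting. Whether the counting used strand is unknown from the sources used here, so reads of overlapping antisense genes cannot be told apart. The members and gene lists were chosen with earlier results of these data known.

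Genotype and sex came from the labels, and the replicate numbers are names only. Low counts were removed with edgeR's filterByExpr (15117 of 24015 genes left, with 99.9% of counts), and libraries were scaled by TMM (factors 0.999 to 1.00). Library totals of 15950899 to 20616219 counts set the depth, and 3 counts, taken as the floor, equal 0.146 to 0.188 CPM. The test was edgeR's robust quasi-likelihood test (version 4.0.16, R 4.3.3), whose terms were genotype and sex, leaving 1 residual degree of freedom. Two-sided p-values were adjusted over every tested gene (Benjamini-Hochberg, 0.05). A log2 fold change divided by the square root of F gives its SE. The sex difference of the genotype effect came from a fit of genotype and its product with sex. Ratios within a sex carry a prior count of 2 and were not tested. GENCODE M21 transcript lengths matched 94.6% of symbols.

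Named genes were the 3 transporters, the tested members of the other SLC17 and vesicular transporter lists, the 2 members with the smallest p in each direction of every other list (at least 1 CPM), 6 tissue checks, and the 5 genes most like each transporter. Some genes that this rule names are not reported here. Lists were described by counts and medians only. The alternatives comprised limma-voom (limma 3.58.1), DESeq2 1.42.0, the likelihood ratio test of edgeR, scaling by totals or by DESeq2's factors, no filter on low counts, a filter of 1 CPM in 2 libraries, leaving sex out, a threshold of 0.1, a prior count of 2 in the ratio, a minimum of 1 CPM for likeness, the union of exons as gene length (added after the data were seen), and each library left out. Scripts were tested on simulated data.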

Additional observations from a re-analysis of the deposited data

Results flagged for a closer look

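Median log2 ratios of 5 marker and pathway lists had opposite signs in the sexes, and the difference was not tested. In the females the median was 0.12 for glutamate synthesis and recycling, 0.15 for vesicle release, -0.37 for brainstem positional and motor genes, 2.77 for midbrain neurons and -0.15 for astrocytes and Bergmann glia. In the males these lists had -0.03, -0.06, 0.48, -0.10 and 0.05. Each sex has 1 library per genotype, so these are single pairs of libraries.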

How the results depend on the processing

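The 3 transporters kept their direction and were not called, for genotype or sex, with any other tool, scaling or filter tried, and for genotype without the sex term and at a threshold of 0.1, except that DESeq2 gave no adjusted p for the genotype effect of Slc17a8. The cause was not tested where a value below moved. Leaving out each library in turn gave log2 fold changes from -0.34 to -0.027 for Slc17a7, 0.10 to 1.30 for Slc17a6 and 0.058 to 3.72 for Slc17a8, and a difference of 0.12 to 1.64 in the log2 ratio of Slc17a6 to Slc17a7. Of these 4 fits, only the one without the wild type male called the transporters, and it called all 3. In such fits sex and genotype are partly mixed. The count of genes called by genotype, 3, became 34 with DESeq2, 204 with the likelihood ratio test, 7 with DESeq2's size factors, 13 with library totals, 553 without a filter, 0 with the filter of 1 CPM, 0 without sex and 7 at a threshold of 0.1, and lay between 0 (without the heterozygous male) and 2730 (without the wild type male) when 1 library was dropped. At an unadjusted p of 0.05 it was 1766. The count for sex, 9, became 17 with the likelihood ratio test and 48 without a filter. Under the same omissions list medians spanned -0.42 to -0.17 for the other SLC17 gene, 0.076 to 0.12 for the proton pump, -0.088 to 0.089 for glutamate supply, -0.50 to -0.24 for granule cells, 0.25 to 0.51 for nuclear neurons, -0.19 to -0.11 for unipolar brush cells, -0.98 to -0.052 for forebrain neurons, 0.11 to 1.14 for the choroid plexus, -0.37 to 0.45 for brainstem genes, -0.77 to -0.25 for endothelial and mural cells, -0.15 to 0.0089 for astrocytes and Bergmann glia, -0.058 to 0.099 for vesicle release, 0.31 to 2.09 for aminergic and cholinergic neurons, -0.0043 to 2.75 for midbrain neurons, -0.43 to -0.22 for Purkinje cells, 0.061 to 0.18 for oligodendrocytes, 0.18 to 0.62 for other vesicular transporters and 0.052 to 0.12 for glycinergic and GABAergic neurons. The ratio of Slc17a7 to Slc17a6 per length in the heterozygotes was 2.72 with the union of exons in place of 3.86. Genes whose sign turned ranged from -0.26 to 0.10 (Clcn3), -0.23 to 0.13 (Atp6ap2), -0.51 to 2.20 (Pou4f2), -0.50 to 0.30 (Lef1), -0.34 to 0.23 (Neurod6) and -0.11 to 0.35 (Fabp7). The labels pair no animals by number, and the fit with sex as a term already sets each heterozygote beside the wild type of its sex. The 10 counts of Slc17a8 in the wild type female limit how precisely its fold can be known.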
